A study of Rattus norvegicus with 9 samples.

Results

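The cathepsins are the main protein-degrading enzymes of the lysosome, and 10 of their genes (Ctsa, Ctsb, Ctsc, Ctsd, Ctsh, Ctsk, Ctsl, Ctso, Ctss and Ctsz) were followed here in rat kidney after colistin treatment. Members were the probe sets annotated to exactly 1 gene whose symbol was one of these, which gave 12 probe sets of the 20826 with 1 symbol, and 10 genes of 14217. All 10 genes passed the intensity minimum that left 10337 genes for testing, and each of them had a mean above that minimum in every group. Kidneys came from 9 Sprague-Dawley rats, an outbred stock, bought at 8 weeks of age and kept for 1 week before dosing. Each rat received a daily intraperitoneal injection for 7 days of saline vehicle (0 mg/kg) or of colistin methanesulfonate sodium (CMS) at 25 or 50 mg/kg. CMS is the prodrug of colistin, a polymyxin antibiotic that proximal tubule cells take up. The groups are called vehicle, CMS25 and CMS50, with 3 rats and 3 arrays each, and the rats arrayed were a random selection from each dose. Vehicle kidneys are labelled as without lesions. Those of CMS25 showed tubular basophilia with dilated tubules, and those of CMS50 showed cell necrosis, degenerated or dilated tubules and eosinophilic casts, per the labels. RNA was taken from the whole right kidney, so each value averages over all cells of the organ, and fewer cells of a type cannot be told apart from less RNA per cell.

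Cathepsins are made as inactive precursors, carried to lysosomes largely by mannose 6-phosphate receptors, and activated there by cleavage at acid pH. Most are cysteine proteases of the papain family, whereas Ctsd is an aspartic protease and Ctsa a serine carboxypeptidase. In the kidney, the proximal tubule takes up filtered protein through the receptors megalin (Lrp2) and cubilin (Cubn), and its lysosomes break that protein down. Macrophages and other phagocytes are also rich in several cathepsins, among them Ctss, which trims the invariant chain (Cd74) from MHC class II molecules.

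Values are log2 intensities as deposited, so a difference of 1 is a doubling. Group values are given as mean ± SD of 3 arrays. Changes are differences on that log2 scale and SE is the standard error of the limma fit, whose p-values were adjusted by the Benjamini-Hochberg method over all 10337 genes. A gene was called at an adjusted p under 0.05. A probe set's brightness depends on its probes as well as on its RNA, so levels of different genes are not ranked against each other. As a check of the tissue label, 19 of 20 proximal tubule markers passed the intensity minimum, and their mean per array was 11.99 to 12.17 in vehicle. Readings of RNA quality did not overlap between CMS50 and vehicle. For beta-actin, the signal of the 3′ control probe set minus that of the 5′ one was 3.48 to 3.63 in CMS50 and 2.80 to 3.08 in vehicle, a difference of 0.60 with a two-sided exact permutation p of 0.1, the smallest that 3 against 3 arrays allow. For GAPDH it was 0.77 to 0.89 against 0.51 to 0.56, and the part of this shift in the results below was not tested.

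At 50 mg/kg, most of the cathepsin genes were higher. Of the 10 genes, 8 were called higher than in vehicle kidneys, 0 were called lower, and Ctsb and Ctsc did not pass the test. Over all genes, 19.6% were called higher and 31.1% were called in either direction, with 2028 of 10337 higher and 1183 lower. The changes of the 10 cathepsins ran from 0.31 to 1.44 with a median of 0.64, where the median over all genes tested was 0.05. In 9 genes, Ctsb being the exception, every CMS50 array lay above every vehicle array, which held for 30.6% of all genes. The genes were chosen with earlier results of these data known, so the counts describe the family and are not a test of it. Leaving out 1 array at a time gave 5 to 8 called cathepsins, with 5 when vehicle replicate 2, vehicle replicate 3, CMS50 replicate 1 or CMS50 replicate 2 was absent. The call for Ctsa, Ctsh or Ctsl depended on such an array, whereas Ctsd, Ctsk, Ctso, Ctss and Ctsz were called in every alternative in which they were tested.

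**Figure D1:**
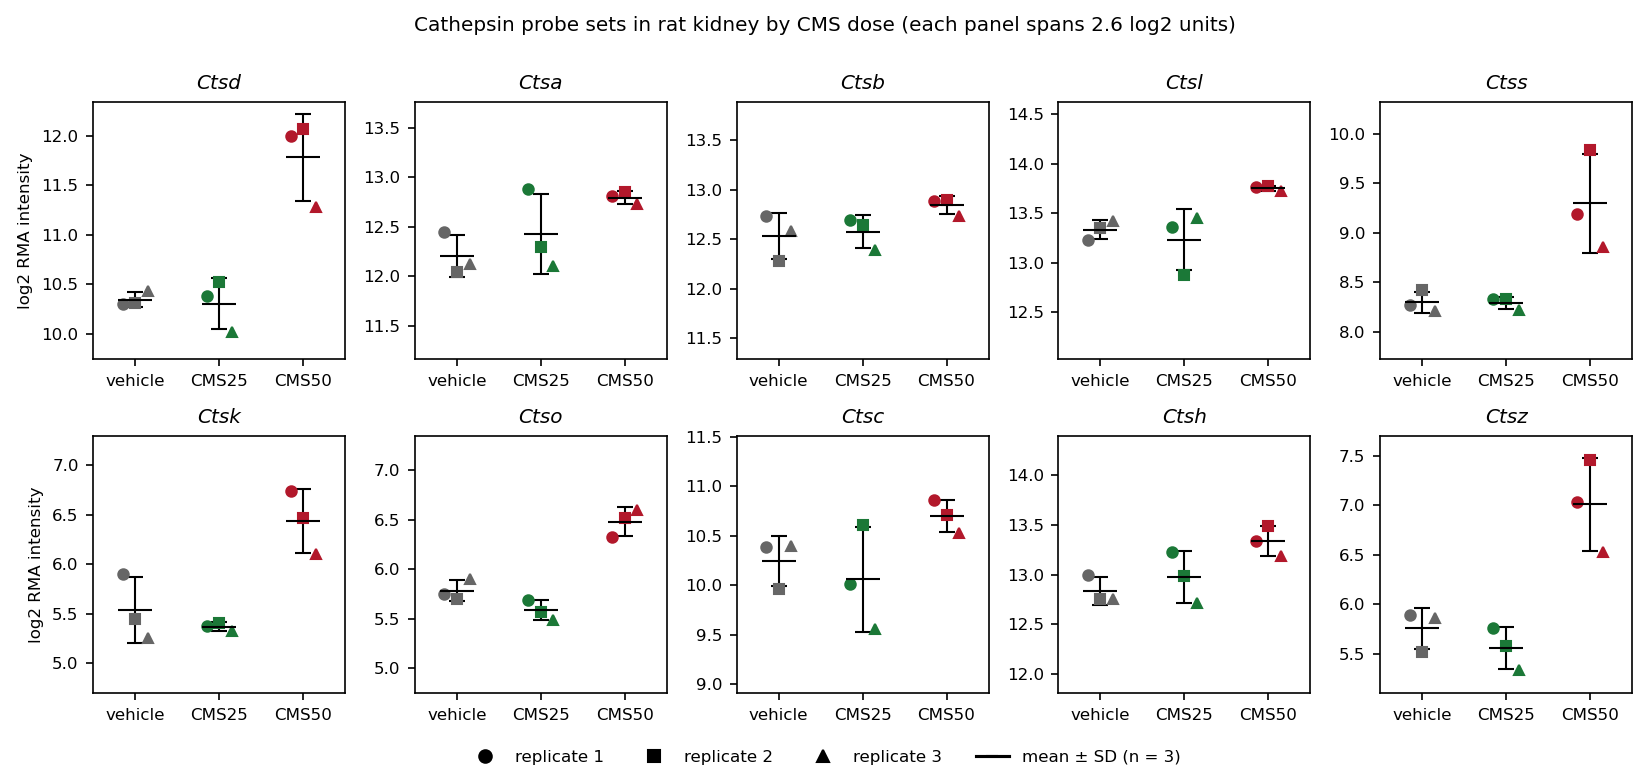
Log2 intensity of each cathepsin in each of the 9 arrays, 1 panel per gene, with a symbol for each replicate, grouped by vehicle, CMS25 and CMS50, and lines for each group's mean ± SD. CMS50 arrays lie above all vehicle arrays for every gene except Ctsb. CMS25 arrays overlap vehicle arrays for every gene except Ctso, where the highest CMS25 array lies just below the lowest vehicle array.

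Ctsd, the major aspartic endopeptidase of lysosomes, had the largest change of the family. Its probe set 1367651_at read 10.30, 10.31 and 10.43 in vehicle, 10.38, 10.52 and 10.02 in CMS25, and 12.00, 12.07 and 11.28 in CMS50. All 3 CMS50 arrays lay well above the other 6, and replicate 3 was the lowest of them. CMS50 kidneys therefore averaged 11.79 ± 0.44 against 10.35 ± 0.0718 in vehicle, a 2.71-fold rise with a 95% interval of 1.96 to 3.74 (log2 change 1.44, SE 0.21, adjusted p = 0.00275). The stretch before the Ctsd start site is shown because it was the sole cathepsin promoter, of the 9 with a RefSeq entry and for 12 motifs searched, that held CACGTG, the core of the E-box to which TFEB, TFE3 and MITF bind in lysosomal genes. It is the 250 bases upstream of the start, on the minus strand at chr1:206968822-206969071 of the rat assembly GRCr8, with the matches in capitals.
Ctsd: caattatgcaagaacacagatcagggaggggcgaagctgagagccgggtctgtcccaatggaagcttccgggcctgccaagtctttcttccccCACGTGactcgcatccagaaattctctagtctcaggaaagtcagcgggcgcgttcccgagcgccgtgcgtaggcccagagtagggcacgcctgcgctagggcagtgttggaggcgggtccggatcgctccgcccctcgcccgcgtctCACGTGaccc
The matches begin 157 and 10 bases upstream of the start, and the nearer one lies inside a match to the longer TCACGTGA. Of 33469 rat promoter windows of 300 bases, 6.42% held CACGTG and 0.777% held TCACGTGA, on either strand. A match of letters is not a binding site, and no binding was measured here.

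Ctsa is the serine carboxypeptidase also called protective protein, which holds the lysosomal beta-galactosidase Glb1 and the sialidase Neu1 in a stable complex. Probe set 1371325_at read 12.45, 12.05 and 12.13 in vehicle, 12.88, 12.30 and 12.11 in CMS25, and 12.81, 12.85 and 12.73 in CMS50. The CMS50 arrays were all above vehicle, and CMS25 replicate 1 was as high as they were. Ctsa rose 1.5-fold at CMS50 (log2 change 0.59, SE 0.19, adjusted p = 0.0399). The call was lost, with adjusted p-values of 0.0571 to 0.126, without vehicle replicate 2, vehicle replicate 3 or any 1 of the CMS50 arrays. Its partners moved in opposite directions: Glb1 changed by 0.63 (adjusted p = 0.00577) and Neu1 by -0.66 (adjusted p = 0.0367), the latter not called without vehicle replicate 1, vehicle replicate 2, CMS50 replicate 1 or CMS50 replicate 2.

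Among the cysteine endopeptidases, Ctss, which cuts the invariant chain in antigen-presenting cells and stays active at neutral pH, rose. Probe set 1387005_at read 8.27, 8.42 and 8.21 in vehicle, 8.33, 8.33 and 8.22 in CMS25, and 9.19, 9.84 and 8.86 in CMS50. The 6 arrays of the lower doses lay close together and the CMS50 arrays spread over a wider range above them. The means were 8.30 ± 0.111 in vehicle and 9.29 ± 0.498 in CMS50 (1.99-fold, log2 change 0.99, SE 0.21, adjusted p = 0.00869). Its substrate gene Cd74 rose as well, from 10.29 to 11.48 (log2 change 1.19, SE 0.23, adjusted p = 0.00638). The Ctss promoter is shown because it and Ctso were the 2 of 9 cathepsin promoters with the interferon response-type letters GAAA, any 2 bases and GAAA again, found in 3.92% of all promoter windows. It is the 250 bases upstream of the start, on the plus strand at chr2:185775146-185775395 of GRCr8, with the match, which begins 36 bases upstream of the start, in capitals.
Ctss: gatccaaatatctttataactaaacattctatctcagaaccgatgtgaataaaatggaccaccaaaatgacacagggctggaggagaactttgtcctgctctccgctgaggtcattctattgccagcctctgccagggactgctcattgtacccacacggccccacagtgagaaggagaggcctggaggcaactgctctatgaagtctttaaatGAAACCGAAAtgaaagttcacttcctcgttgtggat
In Ctso, the matching stretch lies just after the start, on the plus strand at chr2:169528483-169528498, and holds 2 overlapping matches that begin 16 and 22 bases after it.
Ctso: GAAACCGAAAGAGAAA
No member promoter of the 9 held the letters TTCNNNGAA or TGANTCA, which 8.87% and 7.33% of all windows held, and these absences concern only this 300-base window.

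Ctso, a less studied papain-family protease, had a smaller change with little spread. Probe set 1397917_at read 5.75, 5.70 and 5.90 in vehicle, 5.69, 5.57 and 5.49 in CMS25, and 6.32, 6.52 and 6.60 in CMS50. The 3 groups did not overlap, with CMS25 lowest, although its highest array (5.69) nearly met the lowest vehicle array (5.70). Ctso rose 1.62-fold over vehicle (log2 change 0.69, SE 0.10, adjusted p = 0.00296) and 1.86-fold over CMS25 (log2 change 0.89, adjusted p = 0.00166). It was the sole member in which CMS50 replicate 3 was the highest of its group.

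Ctsk, the collagen-degrading cathepsin best known from osteoclasts, read 5.90, 5.45 and 5.25 in vehicle, 5.38, 5.41 and 5.32 in CMS25, and 6.74, 6.47 and 6.10 in CMS50 on probe set 1369947_at. The CMS50 arrays lay above all others, with vehicle replicate 1 closest to the lowest of them, and CMS25 lay within the range of vehicle. The rise was 1.87-fold (log2 change 0.90, SE 0.19, adjusted p = 0.00911). Of 5 osteoclast markers on the array, 3 were measured, 0 were called higher and Calcr was called lower, a call lost when any 1 of 5 arrays was absent. Acp5, the acid phosphatase by which osteoclasts are stained, changed by 0.10 with an adjusted p of 0.458.

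Ctsl and Ctsb, the broad endopeptidases that carry much of general lysosomal proteolysis, had small changes on very bright probe sets. Ctsl on probe set 1370244_at read 13.23, 13.35 and 13.42 in vehicle, 13.36, 12.88 and 13.45 in CMS25, and 13.76, 13.77 and 13.72 in CMS50. The CMS50 arrays lay close together and above all others. Ctsl rose 1.34-fold (log2 change 0.42, SE 0.14, adjusted p = 0.0485), but this call was lost in 12 of the 20 alternatives, with adjusted p-values up to 0.135. Ctsb on probe set 1367646_at read 12.74, 12.28 and 12.58 in vehicle, 12.70, 12.64 and 12.39 in CMS25, and 12.89, 12.90 and 12.74 in CMS50. Its groups were not separated, since CMS50 replicate 3 and vehicle replicate 1 read alike. The difference was 0.31 with a 95% interval of 0.01 to 0.61 and an adjusted p of 0.104, so Ctsb was not called.

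The exopeptidases, which trim residues from the ends of proteins and peptides, ranged from a large rise in Ctsz to no call for Ctsc. Ctsz, the carboxypeptidase also known as cathepsin X, read 5.89, 5.52 and 5.86 in vehicle, 5.76, 5.58 and 5.34 in CMS25, and 7.03, 7.46 and 6.53 in CMS50 on probe set 1370885_at. No CMS50 array came near the other groups. Ctsz rose 2.37-fold, with a 95% interval of 1.68 to 3.34 (log2 change 1.25, SE 0.22, adjusted p = 0.00483). Ctsh, which acts mainly as an aminopeptidase, read 13.00, 12.75 and 12.75 in vehicle, 13.23, 12.98 and 12.71 in CMS25, and 13.34, 13.49 and 13.19 in CMS50 on probe set 1386899_at. The CMS50 arrays were above vehicle but overlapped CMS25. The rise was 1.42-fold (log2 change 0.50, SE 0.14, adjusted p = 0.0283), and it was not called, with adjusted p-values up to 0.1, without vehicle replicate 2, vehicle replicate 3, CMS50 replicate 1 or CMS50 replicate 2.

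Ctsc is the dipeptidyl peptidase that activates the granule serine proteases of neutrophils, mast cells and cytotoxic lymphocytes. Probe set 1374778_at read 10.39, 9.96 and 10.40 in vehicle, 10.01, 10.61 and 9.56 in CMS25, and 10.86, 10.71 and 10.53 in CMS50. CMS25 was widely spread, at 10.06 ± 0.524, and overlapped both other groups. CMS50 exceeded vehicle by 0.45 (SE 0.24, 95% interval -0.09 to 0.99, adjusted p = 0.184), which did not pass the test although the arrays of the groups did not overlap. Of 10 genes on the array for granule proteases of such cells, 3 passed the intensity minimum. At CMS50 against vehicle, 0 of these 3 were called or had an unadjusted p under 0.05. At CMS50 against CMS25, 1 of them, Tpsb2, was called lower (-0.36, adjusted p = 0.0236), and 0 to 2 were called there with 1 array left out.

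At 25 mg/kg, no cathepsin was called against vehicle. The changes ran from -0.20 to 0.22 with a median of -0.07, 3 genes were higher and 7 lower, and 0 of 10 had an unadjusted p under 0.05. Across all genes, 0 of 10337 (0.0%) were called in this comparison by limma and 604 had an unadjusted p under 0.05. A missed call does not show that the doses were alike: the 95% interval allowed a change of -0.51 to 0.42 for Ctsd, -0.47 to 0.46 for Ctss and -0.69 to 0.30 for Ctsz. Ctso was the sole cathepsin whose CMS25 arrays did not overlap vehicle, all of them being lower, with a difference of -0.20 (95% interval -0.43 to 0.03, adjusted p = 0.851). The groups were barely apart, with 5.69 the highest in CMS25 and 5.70 the lowest in vehicle. The share of all genes separated in this comparison was not counted, so nothing is read from it.

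Between the treated groups, 6 cathepsins were called higher at CMS50 than at CMS25 and 0 lower, where 20.8% of all genes were called higher and 30.3% in either direction. The 6 were Ctsd, Ctsz, Ctsk, Ctss, Ctso and Ctsl. Ctsd exceeded CMS25 by 2.79-fold (log2 difference 1.48, SE 0.21, adjusted p = 0.00249), Ctsz 2.72-fold (adjusted p = 0.00304), Ctsk 2.10-fold (adjusted p = 0.00504) and Ctss 2.00-fold (adjusted p = 0.00872). Ctsl differed by 0.52 (adjusted p = 0.0229), a call that was lost without CMS50 replicate 1 (adjusted p = 0.0666) or without CMS50 replicate 2 (adjusted p = 0.0718). Ctsa, Ctsb, Ctsc and Ctsh were not called, with differences of 0.37, 0.27, 0.64 and 0.37. Of these, Ctsa and Ctsh became called without CMS25 replicate 1 (differences of 0.59 and 0.50, adjusted p-values of 0.0185 and 0.0338), and Ctsc became called without CMS25 replicate 2 (0.91, adjusted p = 0.0151). In 7 genes every CMS50 array lay above every CMS25 array, as in 30.4% of all genes. This comparison and that with vehicle share the CMS50 arrays, so one does not add independent support to the other.

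**Figure D2:**
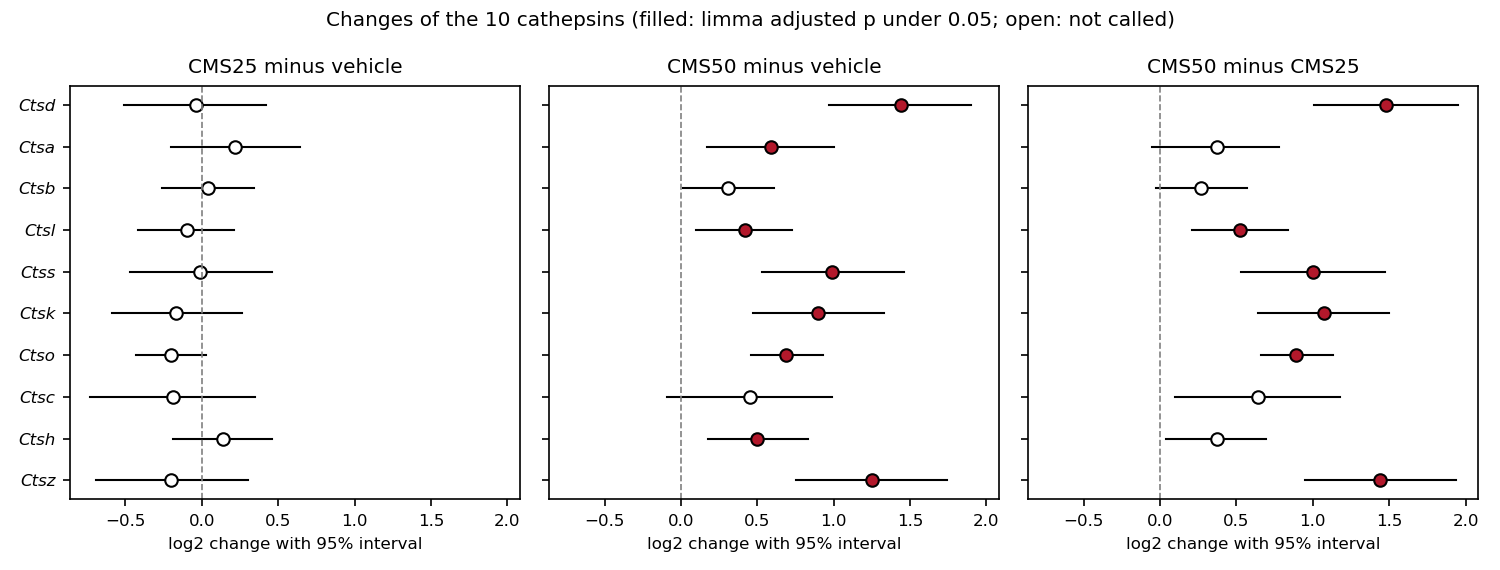
Log2 change of each cathepsin for CMS25 minus vehicle, CMS50 minus vehicle and CMS50 minus CMS25, with points for the limma estimate, filled where it was called, and lines for its 95% interval. The CMS25 minus vehicle intervals all include 0, and the CMS50 minus vehicle estimates run from 0.31 for Ctsb to 1.44 for Ctsd.

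The members differed in how much they varied within CMS50. Replicate 3 was the lowest CMS50 array in 9 of 10 cathepsins, which was so in 38.7% of all genes, and replicate 2 was the highest in 7. The share of all genes with replicate 2 highest was not counted. Against the vehicle mean, Ctsd was higher by 1.69 in replicates 1 and 2 on average and by 0.93 in replicate 3. Ctsz was higher by 1.48 and 0.77 in the same arrays, Ctss by 1.21 and 0.56, and Ctsk by 1.07 and 0.56. In these 4 genes replicate 3 was thus below the mean of the other CMS50 arrays while still lying above all vehicle arrays. Replicates 1 and 2 also differed from each other, with 9.19 and 9.84 in Ctss (replicate 3 at 8.86) and 7.03 and 7.46 in Ctsz (replicate 3 at 6.53). The gap between replicate 3 and the mean of the others was smaller in Ctsa, with 0.62 against 0.52, and in Ctsl, with 0.43 against 0.39. CMS25 replicate 3 was also the lowest of its group in 9 of 10 cathepsins, against 42.5% of all genes, with Ctsl the exception. Without both of these arrays, 7 cathepsins were called at CMS50 against vehicle.

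Members also differed in how alike their profiles were, measured as the root mean square difference over the 9 arrays after each gene was centred on its own mean. Profiles were not scaled, so genes with changes of like size tend to differ less by this measure. Ctsa and Ctsh differed least, by 0.104, followed by Ctsb and Ctsh (0.125), Ctsd and Ctsz (0.170), and Ctsa and Ctsb (0.182). Ctsa, Ctsb, Ctsh and Ctsl had the brightest probe sets, each with a vehicle mean above 12, and their changes were 0.31 to 0.59. The other 6 genes had vehicle means under 11 and changes of 0.45 to 1.44, and the part of probe brightness in this was not tested.

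A pair of genes had a second probe set each, and in both genes the sets differed in size of change. For Ctsl, probe set 1370245_at read 10.96, 11.13 and 11.04 in vehicle, 11.46, 10.61 and 11.64 in CMS25, and 12.13, 12.03 and 11.80 in CMS50. This dimmer set moved further than the bright one, by 0.94 (SE 0.23, adjusted p = 0.0163) against 0.42 (adjusted p = 0.0503) when every probe set was tested on its own. Both sets were lowest in CMS25 replicate 2, and with their mean as the gene's value the Ctsl change was 0.68. For Ctsc, probe set 1368280_at read 10.47, 10.11 and 10.50 in vehicle, 10.05, 10.66 and 9.55 in CMS25, and 10.60, 10.71 and 10.34 in CMS50. Its CMS50 and vehicle arrays overlapped, and it differed by 0.19 (95% interval -0.36 to 0.74, adjusted p = 0.591), less than the 0.45 of the other set. Among the CMS25 arrays, both Ctsc sets were highest in replicate 2 and lowest in replicate 3.

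**Figure D3:**
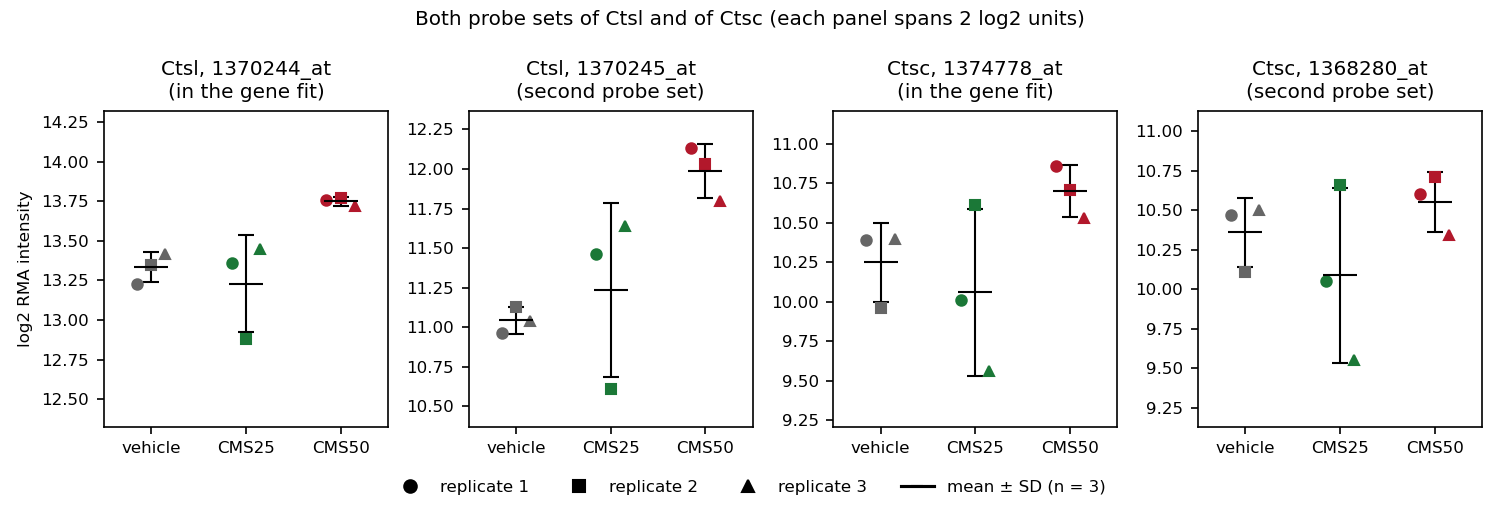
Log2 intensity in each of the 9 arrays for the 2 probe sets of Ctsl and the 2 of Ctsc, with a symbol for each replicate and lines for each group's mean ± SD. The dimmer Ctsl set, 1370245_at, rises further from vehicle to CMS50 than 1370244_at, and the Ctsc sets follow each other in the CMS25 arrays.

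Around the cathepsins, the enzymes that process them or work beside them also moved, mostly upward. Of 15 processing and partner enzymes measured, 7 were called higher and 2 lower at CMS50 against vehicle, with a median change of 0.46, and 5 in all were called without vehicle replicate 2, CMS50 replicate 1 or CMS50 replicate 2. For this list and those below, the shares over all genes were 19.6% called higher and 31.1% in either direction. Lgmn, the asparaginyl endopeptidase that cleaves several cathepsins into their mature chains, rose from 12.34 to 13.02 (log2 change 0.68, SE 0.12, adjusted p = 0.00442). Grn, the progranulin precursor whose granulins act in lysosomes, rose by 0.93 (adjusted p = 0.00251), Ifi30, a thiol reductase of antigen-processing lysosomes, by 0.75 (adjusted p = 0.00312) and Napsa, an aspartic protease related to Ctsd, by 0.74 (adjusted p = 0.00304). The calls of Lgmn, Grn, Ifi30 and Napsa held with each array left out in turn. Dpp7, the largest called change of the list, rose by 1.06 (adjusted p = 0.0261) and Prcp by 0.77 (adjusted p = 0.0224). Both of these calls were lost without vehicle replicate 2, vehicle replicate 3, CMS50 replicate 1 or CMS50 replicate 2. Of cathepsin genes outside the 10, 3 were measured and Ctsf, a papain-family member, was called (0.47, adjusted p = 0.0398), but not when any 1 of 6 arrays was absent.

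Of 6 measured cathepsin inhibitors, 2 were called higher and 0 lower. Cystatin C (Cst3), the secreted inhibitor of cysteine cathepsins, differed by 0.28 and was not called (adjusted p = 0.134). Cystatin B (Cstb), its intracellular counterpart, changed by 0.39 (adjusted p = 0.0452), and Serpina3n, a secreted serpin, by 3.24 (adjusted p = 0.0395). Neither call was robust, each being lost in 7 of the 9 fits that left out 1 array, 1 inhibitor was called with median scaling, and Serpina3n changed by 2.11 without CMS50 replicate 2. Serpina3n passed the intensity minimum through CMS50, with means of 5.01 in vehicle, 3.64 in CMS25 and 8.24 in CMS50.

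The rest of the lysosome did not move as a block. Beside the counts here, 19.6% of all genes were called higher and 1183 of 10337 lower. Of 35 other lysosomal membrane and lumen genes measured, 14 were called higher and 2 lower, with a median of 0.28, and the total fell to 9, 9 and 10 without vehicle replicate 2, CMS50 replicate 1 and CMS50 replicate 2. Cd68 and Laptm5, both called higher, are counted here and among the macrophage and myeloid markers below. The arylsulfatase Arsb rose by 1.06 (adjusted p = 0.00457) and the sialic acid exporter Slc17a5 fell by 1.17 on the log2 scale (adjusted p = 0.00296). The main membrane glycoproteins Lamp1 and Lamp2 differed by 0.13 and 0.07 and were not called. Of 20 vacuolar ATPase subunits, the pump that acidifies lysosomes and other compartments, 0 were called higher and 6 lower, with a median of -0.23. The total was 1 to 3 without vehicle replicate 1, 2 or 3, CMS25 replicate 3, CMS50 replicate 1 or CMS50 replicate 2. Its largest fall, 1.35 on the log2 scale for Atp6v1g3 (adjusted p = 0.0166, not called without vehicle replicate 3, CMS50 replicate 1 or CMS50 replicate 2), was in a subunit typical of intercalated cells, and distal and collecting duct markers were also lower, with 8 of 16 called lower and 0 higher, and 3 to 5 called lower without any 1 vehicle array, CMS50 replicate 1 or CMS50 replicate 2. The 2 counts are not separate, since Atp6v1b1 (-1.09, adjusted p = 0.0352) is on both lists and is called lower in each. The part of those cells in the fall of the pump genes was not tested.

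Sorting and uptake genes were split. Of 20 sorting genes, 5 were called higher and 3 lower, with a total of 4 or 5 when a vehicle array, CMS50 replicate 1 or CMS50 replicate 2 was left out. Among all genes, 19.6% were called higher and 31.1% in either direction, so these counts are not read as a result about sorting. Scarb2, the receptor that carries glucocerebrosidase to lysosomes, rose by 0.60 (adjusted p = 0.00475) and Sort1, the sortilin receptor, fell by 0.79 (adjusted p = 0.0123). The small mannose 6-phosphate receptor M6pr changed by 0.36 (adjusted p = 0.0199), a call lost without vehicle replicate 1, vehicle replicate 3, CMS50 replicate 1 or CMS50 replicate 2, and the large one, Igf2r, differed by -0.16 and was not called. Cubn rose by 0.90 (adjusted p = 0.0053), while Lrp2 differed by 0.07 and was not called. Among 27 regulators of lysosome formation and autophagy, 2 were called higher and 3 lower with a median near 0, and 2 or 3 in all without a vehicle array, CMS50 replicate 1 or CMS50 replicate 2. Tfeb differed by 0.03 (adjusted p = 0.853), Tfe3 by 0.35 (adjusted p = 0.0322, lost in 4 of the 9 fits that left out 1 array) and Mitf, the third of these related factors, fell by 0.64 (adjusted p = 0.00475).

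**Figure D4:**
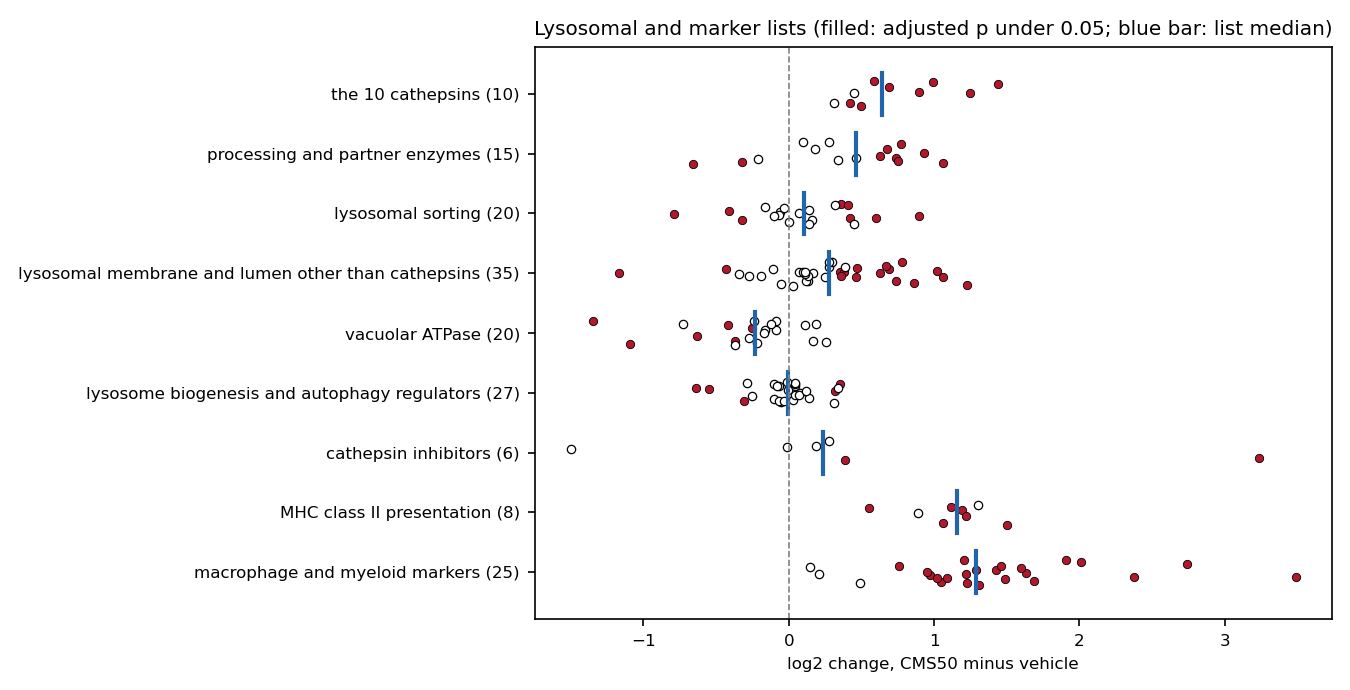
Log2 change at CMS50 minus vehicle for the measured genes of the cathepsins and 8 related lists, with 1 point per gene, filled where it was called, and a bar at the list's median. The cathepsins lie at a median of 0.64, macrophage and MHC class II lists at 1.29 and 1.16, and the vacuolar ATPase at -0.23.

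Markers of phagocytes and of fibroblasts were higher in the same arrays as the cathepsins. For comparison, 19.6% of all genes were called higher at CMS50 against vehicle and 1183 of 10337 lower. Of 25 measured macrophage and myeloid markers, 22 were called higher at CMS50 against vehicle and 0 lower, with a median of 1.29. Their level, given as the list's mean log2 value per array, was 6.46 to 6.66 in vehicle, 6.24 to 6.69 in CMS25 and 7.90, 8.35 and 7.57 in CMS50. Replicate 2 was the highest and replicate 3 the lowest CMS50 array, the same order as in 7 of the 10 cathepsins. The share of all genes with this order was not counted, so nothing is read from the match. Cd68, a lysosomal glycoprotein of macrophages, rose by 1.23 (adjusted p = 0.00747) and Gpnmb, a lysosomal glycoprotein of phagocytes, by 3.49 (adjusted p = 0.000447). Cd163, Itgam, Ccr2, Fcgr2b and Trem2, also on this list, had means over the 9 arrays below the intensity minimum and were not tested. Of these, Cd163, Itgam and Ccr2 were dim in every group, with CMS50 means of 3.34, 3.67 and 3.06, whereas Fcgr2b read 3.4 in vehicle and 5.44 in CMS50, and Trem2 4.68 and 5.36. MHC class II genes followed, with 6 of 8 called higher and list means of 7.75 to 8.20 in vehicle, 7.59 to 7.93 in CMS25 and 8.84, 9.57 and 8.69 in CMS50. Of 8 measured fibroblast markers, 6 were called higher and 0 lower, with a median of 1.47 and list means of 7.38 to 7.66 in vehicle, 6.88 to 7.99 in CMS25 and 8.62, 9.45 and 8.30 in CMS50. Again replicate 2 was the highest CMS50 array and replicate 3 the lowest, and 2 or 3 of these markers were called without any 1 vehicle array, CMS50 replicate 1 or CMS50 replicate 2. Of 10 lymphocyte markers on the array, the sole one measured, Cd3e, a chain of the T cell receptor complex, rose by 0.68 (adjusted p = 0.0157), a call lost without vehicle replicate 3 or CMS50 replicate 1. Cd3e also passed the minimum only through CMS50, with means of 4.83 in vehicle, 4.98 in CMS25 and 5.51 in CMS50. The untested Cd3d and Cd3g read 3.77 and 4.66 in vehicle and 4.64 and 5.33 in CMS50. The rest of the list, also untested, showed no such rise. Cd4, Cd8a, Cd8b, Cd2, Ms4a1, Cd79b and Nkg7 read 4.45, 4.12, 4.24, 4.94, 4.46, 3.89 and 4.27 in vehicle. In CMS50 these genes read 4.49, 4.08, 4.44, 4.98, 4.41, 3.81 and 4.21. No neutrophil result was obtained, since 0 of 6 neutrophil markers passed the minimum. Proximal tubule markers went the other way, with 8 of 19 called lower and 2 higher, and list means of 11.52 to 12.00 in CMS50. Of these, 3 to 5 were called lower without vehicle replicate 1, vehicle replicate 3, CMS50 replicate 1 or CMS50 replicate 2. Cubn, called higher, and Lrp2 are on this list and also among the sorting genes above. The part of each cell type in the cathepsin changes was not tested.

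The genes most like a cathepsin over the 9 arrays were listed for Ctsd and Ctss by the same root mean square difference. For Ctsd they were Psmb9 (0.108), an immunoproteasome subunit, Rgs10 (0.112), a regulator of G protein signalling, and Myof, Tes and Map1b (0.119 each). For Ctss they were Fcer1g (0.10), the signalling chain of Fc receptors in myeloid cells, Mcm2 (0.107), a replication helicase subunit, Fstl3 (0.113), Vsir (0.126) and Ptgfrn (0.129). Their own changes at CMS50 were 1.29 to 1.40 for the first group and 0.89 to 1.13 for the second.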

How the data were processed

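Per the labels' protocols, total RNA of the whole right kidney was biotin-labelled and hybridised to Affymetrix Rat 230 2.0 arrays. Per the submitters' processing notes, the authors ran RMA in Affymetrix Expression Console and deposited log2 values; the versions are not given in the sources used here. The method makes the array distributions alike, so a shift of all genes together cannot be seen. Values were used as deposited. There were 31099 probe sets and 9 arrays, with 0 values missing. Gene names came from the platform annotation, an older release: of 31042 non-control probe sets, 20826 had 1 symbol, 436 several and 9780 were not listed. Symbols were checked against RefSeq genes of GRCr8, which also gave the promoters, with 9 of 10 members matched and none for Ctsb.

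The brightest probe set on average stood for each of the 14217 genes, genes with a mean under 5 were left out, and 10337 were fitted in limma 3.58.1 (R 4.3.3, lmFit and eBayes, no trend, not robust) with the 3 groups together. Arrays limit the precision by their number, 3 in each group. The labels describe biological replicates and give no batch, so none could be tested. The highest correlation between arrays was 0.994. Members, lists and motifs were chosen with earlier results of these data known. Named genes were all members, up to 4 called genes of each list by size of change, and a fixed panel, and Napsa, Glb1, Neu1 and Acp5 were added after their values were seen. The fit was tested on simulated data. Alternatives were cyclic loess and median scaling, a minimum of 6 or none, averaged or separate probe sets, a trended robust variance, array weights, fits of 2 groups alone, a replicate block, and each array left out in turn. Leaving out replicate 3 of both CMS groups together, and both scalings for the gene lists, were chosen after seeing the data. Figures were drawn with matplotlib 3.10.9.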

Additional observations from a re-analysis of the deposited data

How the results depend on the processing

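With 1 array left out in turn, 5 to 8 cathepsins were called at CMS50 against vehicle, 0 at CMS25 against vehicle and 5 to 8 at CMS50 against CMS25. Over all genes these counts were 1687 to 3546, 0, and 1569 to 3518. The lowest counts came without CMS50 replicate 2 (1687 and 1569), CMS50 replicate 1 (1711 and 1737), vehicle replicate 2 (1852, against vehicle) and CMS25 replicate 3 (2008, against CMS25). Other settings gave 6 to 8, 0 and 4 to 6 cathepsins, and 2865 to 4216, 0 and 2165 to 3710 genes. The 4 came with a minimum of 6, which left Ctsk and Ctso untested. For called or uncalled status at CMS50 against vehicle, 177 of 198 combinations of gene and alternative kept it and 21 lost a call, in Ctsa, Ctsh or Ctsl alone. Ctsl was lost with median scaling (adjusted p = 0.0643), no minimum (0.0587), each probe set tested (0.0503) and the replicate block (0.0616). At CMS50 against CMS25, 192 kept it, 3 lost a call, all in Ctsl (adjusted p = 0.0529 with only the 2 groups compared), and 3 gained one. Changes of sign occurred only at CMS25 against vehicle, where no gene was called: leaving out single arrays gave -0.0028 to 0.38 for Ctsa, -0.08 to 0.15 for Ctsb, -0.46 to 0.06 for Ctsc, -0.15 to 0.10 for Ctsd, -0.31 to 0.02 for Ctsk, -0.21 to 0.07 for Ctsl and -0.05 to 0.06 for Ctss. Cyclic loess gave 0.00033 for Ctsd and 0.05 for Ctss, and the mean of probe sets gave 0.04 for Ctsl. Without CMS25 replicate 3 and CMS50 replicate 3 together, Ctsc was 0.06, Ctsd 0.10 and Ctss 0.03. The cause of these changes was not tested. Same-numbered replicates deviated together with correlations of -0.183 to 0.263, and arrays with different numbers with -0.229 to 0.225. The highest, 0.263, was between CMS25 replicate 3 and CMS50 replicate 3. The labels give no batch, so what same-numbered arrays may share was not tested. With the replicate block, 7, 0 and 6 cathepsins and 2865, 0 and 2857 genes were called in the 3 comparisons. The 3′ minus 5′ difference was 0.27 with GAPDH in place of 0.60 with beta-actin.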

Other observations

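Alpha-2-macroglobulin (A2m), a circulating inhibitor that traps proteases of many classes, cathepsins included, had a mean over the 9 arrays below the intensity minimum and was not tested. Its group means were 3.28 in vehicle, 3.49 in CMS25 and 6.62 in CMS50, and it was named after its values were seen.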
